A study of Mus musculus with 5 samples.

Results

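The *H2-Q* genes are the class I genes of the Q region of the mouse major histocompatibility complex. The 8 members described here, *H2-Q1*, *H2-Q2*, *H2-Q4*, *H2-Q6*, *H2-Q7*, *H2-Q8*, *H2-Q9* and *H2-Q10*, were found by gene name among 24319 genes measured by bulk RNA sequencing in 5 libraries of luminal cells sorted from mouse mammary gland. The family was chosen by its FPKM values in these same libraries, whose pattern was known from earlier results, so its levels and differences are given as a description, with no test. Class I molecules are heavy chains that bind peptide and pair with beta-2 microglobulin at the cell surface. Unlike the classical molecules H2-K and H2-D, the nonclassical molecules vary little between individuals and some serve as ligands of lymphocyte and natural killer cell receptors. *H2-Q6*, *H2-Q7*, *H2-Q8* and *H2-Q9* encode the Qa-2 antigen, which is held in the membrane by a glycosylphosphatidylinositol anchor, and mouse haplotypes differ in which of these genes they carry.

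The luminal cells, which line the ducts and alveoli, were sorted as live CD24Hi CD29Lo cells from mammary glands of adult female mice on a mixed C57BL/6 and 129/Sv background. By the sample labels, replicates 1, 2 and 3 were wild type and replicates 4 and 5 were *Brca1* knockout, while the study describes its luminal cells as BRCA1-deficient through *MMTV-Cre*, which is active in the mammary epithelium, and *Brca1* fl/fl. The libraries are therefore named by label. The mice were virgin or at mid-pregnancy, and which stage or which haplotype of the Q region each library had was not given. Nothing in the labels says whether the libraries came from separate mice, so any p-value measures only the spread between these libraries. Values are FPKM (fragments of a gene scaled to its transcript length and to the mapped fragments of the library), which allow levels to be compared between genes.

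*Brca1* itself was at 1.30, 1.32 and 0.234 FPKM (replicates 1, 2 and 3, wild type by label) against 1.20 and 1.34 FPKM (replicates 4 and 5, *Brca1* knockout by label). This level did not separate the labels, and a value for the whole gene does not show whether a floxed exon was lost. The luminal genes *Krt8* (2240 to 3653 FPKM) and *Epcam* (569.6 to 1062 FPKM) were high in every library, although the extraction text in the labels speaks of tumors. Replicate 3 stood apart from the others. The summed level of the mature luminal genes *Prlr*, *Pgr*, *Esr1* and *Foxa1* was 218 FPKM in replicate 3 and 9.45 to 14.5 FPKM elsewhere, and the casein gene *Csn2* was lowest there. Replicate 3 had the lowest value of the 5 libraries for 51.8% of the 11481 genes tested, those whose mean reached 1 FPKM and the highest for 18.5%, but was neither lowest nor highest for any of the 8 *H2-Q* members.

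The annotated members lie close together and are alike in sequence. In GENCODE M21, whose genome GRCm38 is mm10, 6 of the 8 are annotated on the plus strand of chromosome 17, from *H2-Q1* (ENSMUSG00000079507, chr17:35320405-35325099) through *H2-Q2* (ENSMUSG00000091705, chr17:35342242-35346762), *H2-Q4* (ENSMUSG00000035929, chr17:35379617-35385290), *H2-Q6* (ENSMUSG00000073409, chr17:35424850-35430055) and *H2-Q7* (ENSMUSG00000060550, chr17:35439155-35443773) to *H2-Q10* (ENSMUSG00000067235, chr17:35470089-35474563). *H2-Q8* and *H2-Q9* have no gene of that name in GENCODE M21, and their positions in the RefSeq table of GRCm38.p6, ahead of the first GENCODE gene of the chromosome, are not used here as a location. GENCODE M21 links the RefSeq transcript of *H2-Q9* to a transcript of *H2-Q7*. The coding sequences of *H2-Q6* and *H2-Q7* were identical at 95.4% of 978 aligned bases, against 85.8% to 90.8% for the other pairs of annotated members. The following exonic stretch of 60 bases, at chr17:35425119-35425178 in *H2-Q6* and chr17:35439463-35439522 in *H2-Q7*, is shown because reads over it can be told apart between these genes, with the 10 differing bases in capitals.
H2-Q6: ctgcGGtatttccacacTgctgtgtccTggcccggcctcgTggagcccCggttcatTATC
H2-Q7: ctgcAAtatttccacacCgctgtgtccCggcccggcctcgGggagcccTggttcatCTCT

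Over other stretches the sequences are identical, and a read there cannot be assigned to 1 member. Every window of 100 bases in the longest coding transcript of each member was looked up in all annotated transcripts of other genes. For *H2-Q7*, the longest transcript other than the one linked to *H2-Q9* was used, and 88.4% of its windows were also in the transcript linked to *H2-Q9*. Of the *H2-Q7* windows, 11.9% were also in *H2-Q6*, and of the *H2-Q6* windows 8.36% were also in *H2-Q7*. The pseudogene *H2-Q5* held 10.01% of the *H2-Q7* windows and 4.71% of those of the transcript linked to *H2-Q9*. Counting annotated genes only, 21.9% of the *H2-Q7* windows and 13.04% of the *H2-Q6* windows occurred in another gene. The transcript linked to *H2-Q9* is annotated as *H2-Q7*, so the 21.9% leaves out windows shared with it. Sharing with *H2-Q8*, which has no GENCODE gene, could not be counted. For *H2-Q1* and *H2-Q10* the shares in another gene were 13.1% and 2.06%. For *H2-Q4* this share was 13.9%, most of it with the antisense gene *Gm11131*. None of the windows of the longest *H2-Q2* transcript occurred elsewhere, although 5.51% of the *H2-Q1* windows were in a shorter transcript of *H2-Q2*. With longer windows of 150 bases, the shares in another gene, counted in the same way, were lower. They were 11.6% for *H2-Q7*, 5.99% for *H2-Q6*, 4.64% for *H2-Q1*, 8.39% for *H2-Q4* and 0% for *H2-Q10*. How reads that fit several members were divided is not stated in the sources used here, so single values of *H2-Q6*, *H2-Q7*, *H2-Q8* and *H2-Q9* are uncertain and their sums are given beside them.

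**Figure D1:**
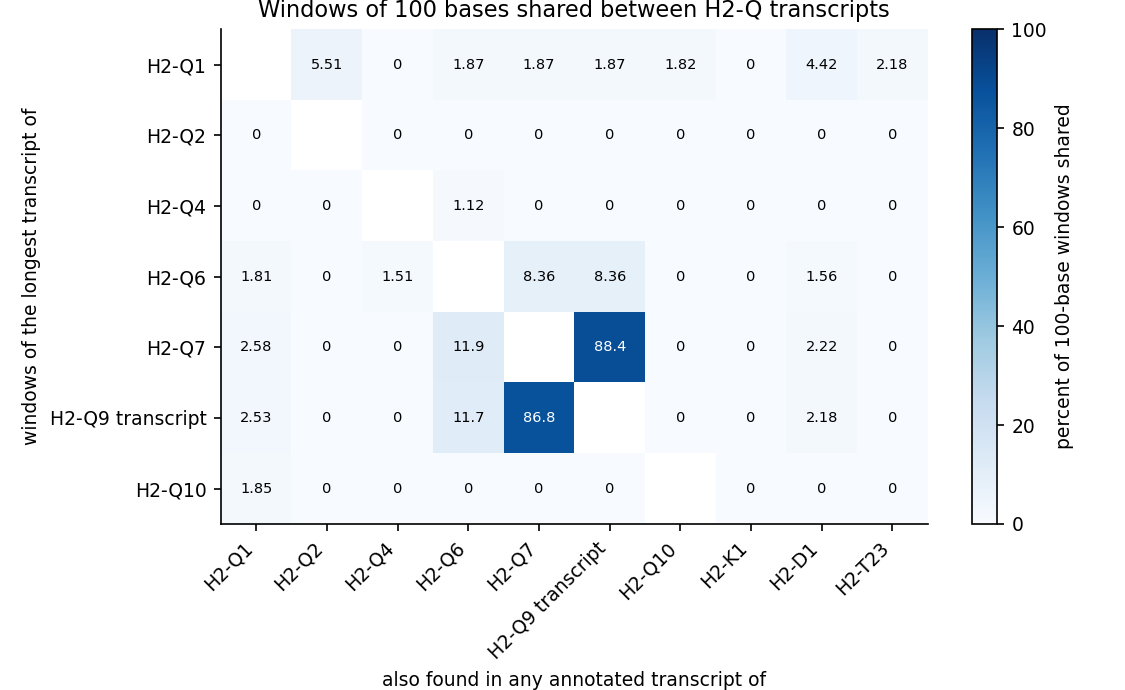
Percent of the 100-base windows of the longest coding transcript of each row that also occur in any annotated transcript of the gene of each column, with the diagonal left blank. The darkest cells join *H2-Q7* and the transcript linked to *H2-Q9* (88.4% of the *H2-Q7* windows), and the next highest join these to *H2-Q6*.

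Class I promoters are known for a compact set of elements, among them enhancer A, which binds NF-kappaB, and the interferon-stimulated response element, which binds interferon regulatory factors. The RefSeq promoter table, from 250 bases before to 50 after each start, held 5 of the 8 members (*H2-Q2*, *H2-Q4*, *H2-Q6*, *H2-Q7* and *H2-Q10*). The letters GAANNGAAA for the interferon element, searched on both strands, were in 4 of these 5 and in 6.34% of 27025 promoters. They were missing from *H2-Q2*. Every motif was searched only in the 250 bases before a start, at any listed start of a member. The shares over all promoters used the first listed start of each gene. The enhancer A letters GGGGATTCC were in *H2-Q6* and *H2-Q7*, and in 0.218% of all promoters. TGACG was in *H2-Q4* and *H2-Q7* (17.9% of all promoters), and CCAAT was in every one of the 5 but *H2-Q10* (34.5%). These stretches of 51 bases (GRCm38.p6, plus strand except for *H2-K1*) show the first pair of motifs, with matches in capitals, and *H2-K1* as the classical gene. Both motifs are present in the stretches of *H2-Q6*, *H2-Q7* and *H2-K1*. Those of *H2-Q4* and *H2-Q10* hold the interferon element without an exact match to the enhancer A letters. Near matches to these letters were not searched for, so an enhancer A of other spelling is not excluded there. They lie at chr17:35379430-35379480, chr17:35424664-35424714, chr17:35439008-35439058, chr17:35469900-35469950 and chr17:34000421-34000471 in the order given.
H2-Q4: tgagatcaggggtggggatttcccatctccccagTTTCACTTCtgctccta
H2-Q6: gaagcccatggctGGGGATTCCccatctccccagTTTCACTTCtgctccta
H2-Q7: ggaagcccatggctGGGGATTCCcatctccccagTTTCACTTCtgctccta
H2-Q10: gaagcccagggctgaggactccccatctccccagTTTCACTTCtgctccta
H2-K1: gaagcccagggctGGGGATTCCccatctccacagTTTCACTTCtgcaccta

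*H2-Q4*, which encodes the Qb-1 antigen, was the most abundant member in all 5 libraries. Its level was 356, 332 and 453 FPKM (replicates 1, 2 and 3) against 351 and 539 FPKM (replicates 4 and 5), with a mean of 405.9 ± 87.9 (SD, n = 5). The labels overlapped, since replicate 4 lay among the wild type-labelled libraries. In these 3 libraries *H2-Q4* made up 44.1% to 49.95% of the summed *H2-Q* level, and in replicates 4 and 5 it made up 35.2% and 38.3%. In the wild type-labelled libraries the other 7 members had means between 48.4 and 72.8 FPKM, and each neighboring pair in that order differed by less than the larger SD of the pair. Among the knockout-labelled libraries the order was *H2-Q4*, *H2-Q8*, *H2-Q7*, *H2-Q9*, *H2-Q1*, *H2-Q2*, *H2-Q10* and *H2-Q6*. There *H2-Q8*, *H2-Q7* and *H2-Q9* were above *H2-Q1* in both libraries, and *H2-Q1*, *H2-Q2* and *H2-Q10* differed by less than their spread.

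**Figure D2:**
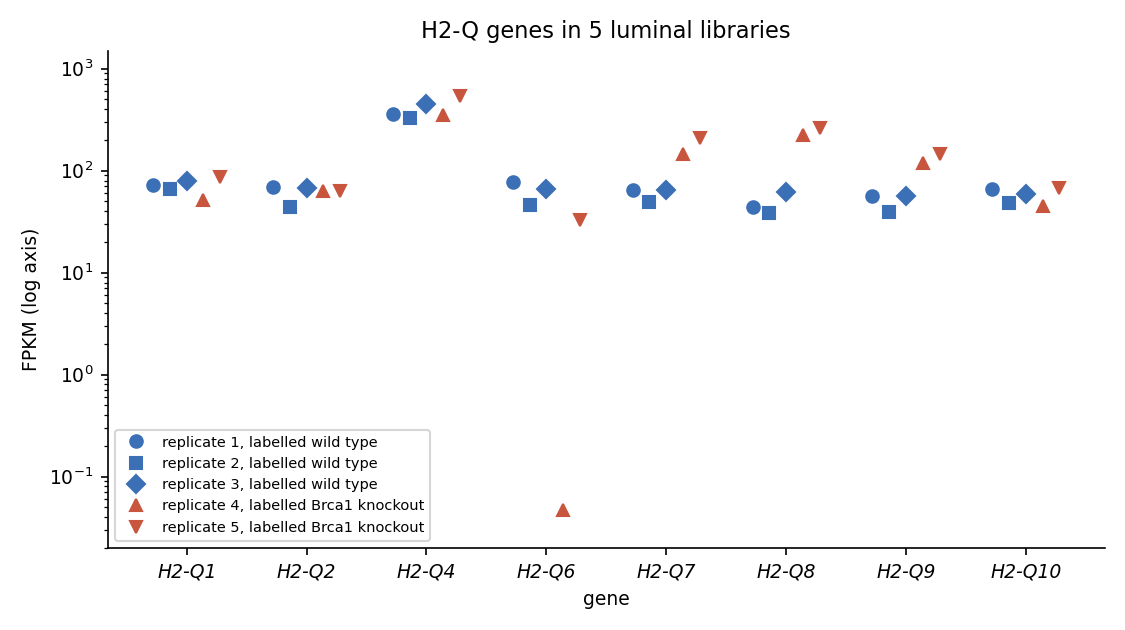
FPKM on a log axis of each member in the 5 libraries, with 1 point per library, blue for wild type-labelled libraries and red for those labelled *Brca1* knockout. *H2-Q7*, *H2-Q8* and *H2-Q9* are higher in both red libraries than in every blue one, and *H2-Q6* is at 0.0473 FPKM in replicate 4.

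*H2-Q8*, a Qa-2 gene, was at 44.5, 38.3 and 62.5 FPKM (replicates 1, 2 and 3) against 222 and 263 FPKM (replicates 4 and 5). Both knockout-labelled libraries were above all those labelled wild type, and the lower of them was 3.55 times the highest wild type value. The difference of the mean log2(FPKM + 1), knockout minus wild type, was 2.33 (standard error 0.26 from limma). Standard errors of members are part of the description, and no test is drawn from them.

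*H2-Q7* was at 64.0, 49.6 and 64.6 FPKM (replicates 1, 2 and 3) against 146 and 207 FPKM (replicates 4 and 5). *H2-Q9* was at 56.4, 38.9 and 56.1 FPKM (replicates 1, 2 and 3) against 118 and 147 FPKM (replicates 4 and 5). For each of these genes the labels did not overlap, and the differences of the mean log2(FPKM + 1) were 1.54 (standard error 0.24) and 1.39 (standard error 0.25). *H2-Q9* held 41.5% to 46.8% of the sum of *H2-Q7* and *H2-Q9* in every library, so this near-identical pair kept a similar division at all levels.

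*H2-Q6*, another Qa-2 gene, had its lower values in the knockout-labelled libraries. Its level was 77.9, 46.6 and 66.8 FPKM (replicates 1, 2 and 3), with 0.0473 FPKM in replicate 4 and 32.7 FPKM in replicate 5. Both knockout-labelled libraries were below all those labelled wild type, and the value in replicate 4 was below the 0.0757 FPKM that 1 fragment would give at the estimated depth of that library. The difference of the mean log2(FPKM + 1) was -3.41 (standard error 1.42), and without replicate 4 it was -0.91, so its size rested on that library.

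Read together, these 4 Qa-2 genes had a higher total in the knockout-labelled libraries. The sum of *H2-Q6*, *H2-Q7*, *H2-Q8* and *H2-Q9* was 243, 173 and 250 FPKM (replicates 1, 2 and 3) and 486 and 650 FPKM (replicates 4 and 5), a difference of 1.35 in the mean log2 of the sum plus 1. *H2-Q6* took 63.7%, 54.9% and 51.7% of the sum of *H2-Q6* and *H2-Q8* in the wild type-labelled libraries, but 0.0213% and 11.1% in replicates 4 and 5. The sum of this pair was 122, 84.9 and 129 FPKM against 222 and 296 FPKM, and did not overlap between the labels. These sums and shares were chosen after the values had been seen. The part of read assignment in the division among the genes was not tested, and haplotype and label cannot be told apart.

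**Figure D3:**
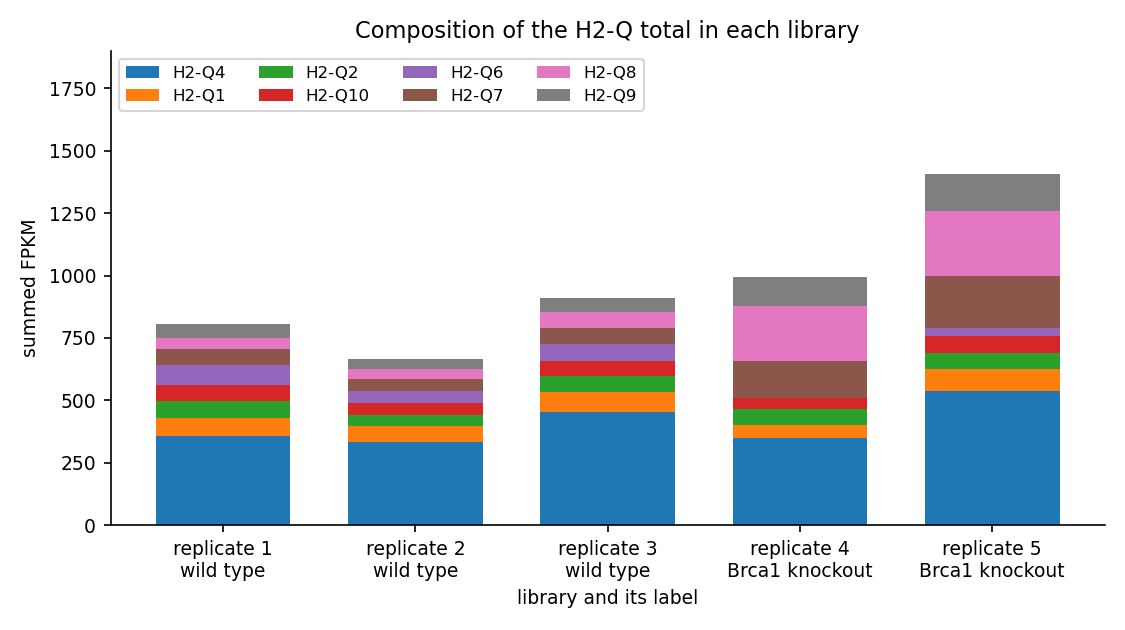
Stacked FPKM of the 8 members in each library, with the label of the library under each bar. The bars of replicates 4 and 5 are the tallest (996 and 1406 FPKM), and *H2-Q7*, *H2-Q8* and *H2-Q9* take a larger part of them.

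The other members did not separate the labels. *H2-Q1* ranged from 51.5 FPKM in replicate 4 to 87.2 FPKM in replicate 5, with the 3 wild type-labelled libraries between them. *H2-Q10*, which encodes a secreted molecule best known from liver, ranged likewise from 44.7 FPKM in replicate 4 to 67.3 FPKM in replicate 5. *H2-Q2* was lowest in replicate 2 (44.5 FPKM) while the rest lay between 63.0 and 68.9 FPKM. The differences of the mean log2(FPKM + 1) were -0.11 for *H2-Q1*, 0.10 for *H2-Q2*, 0.21 for *H2-Q4* and -0.06 for *H2-Q10*. Their standard errors were 0.25 to 0.28. The sum of these 4 genes was 491 to 659 FPKM in the wild type-labelled libraries and 510 and 756 FPKM in replicates 4 and 5. The row of *H2-Q5*, which is not a member and shares sequence with *H2-Q7*, was at 61.9 to 95.5 FPKM in replicates 1 to 3 and at 95.2 and 161 FPKM in replicates 4 and 5.

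All 8 members passed the filter of a mean of 1 FPKM or more. In 3 of them both knockout-labelled libraries were above all those labelled wild type, which was so for 17.5% of all genes tested, and in 1 they were below, which was so for 5.77%. A difference of at least 1 together with higher, non-overlapping labels was found for 1.55% of genes, among them *H2-Q7*, *H2-Q8* and *H2-Q9*. The median difference was 0.15 over the members and 0.11 over all genes tested. Since the family was chosen with these values in view, nothing further is read from these counts. Without replicate 3 the members were again 3 higher and 1 lower, beside 23.5% and 15.6% of genes. Without replicate 1 they were 3 higher and 1 lower (33.2% and 12.3% of genes), and without replicate 2 they were 3 higher and 2 lower (23.3% and 8.92%). Without replicate 4 they were 6 higher and 1 lower (29.5% and 12.5%), and without replicate 5 they were 3 higher and 3 lower (29.4% and 12.4%). Over the whole table, limma with Benjamini-Hochberg adjustment called 0 genes (0%) at an adjusted p under 0.05. An unadjusted p under 0.05 was found by limma for 372 of the 11481 genes tested. This share is below the 0.05 that would be found with no difference.

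Class I genes outside the family were compared next, to see whether the Qa-2 genes stood alone. None of the genes tested in this and the following paragraphs passed the threshold (adjusted p at least 0.924, limma with Benjamini-Hochberg adjustment). Of the classical genes, *H2-K1* was at 811 to 1002 FPKM in the wild type-labelled libraries against 1300 and 1941 FPKM in replicates 4 and 5, a difference in the mean log2(FPKM + 1) of 0.81 (standard error 0.27). *H2-D1* overlapped between the labels (difference 0.09, standard error 0.24), and so did *H2-L*. Of 14 genes of the T and M regions, 10 were tested, with a median difference of 0.29. *H2-T23*, which encodes the Qa-1 ligand of natural killer cell receptors, was at 111, 79.4 and 91.4 FPKM (replicates 1, 2 and 3) against 156 and 237 FPKM (replicates 4 and 5). *H2-T22* (difference 1.04, standard error 0.22), *H2-T9* and *H2-T10* likewise had higher, non-overlapping values in the knockout-labelled libraries, so 4 of the 10 tested did, beside the 17.5% of all genes.

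**Figure D4:**
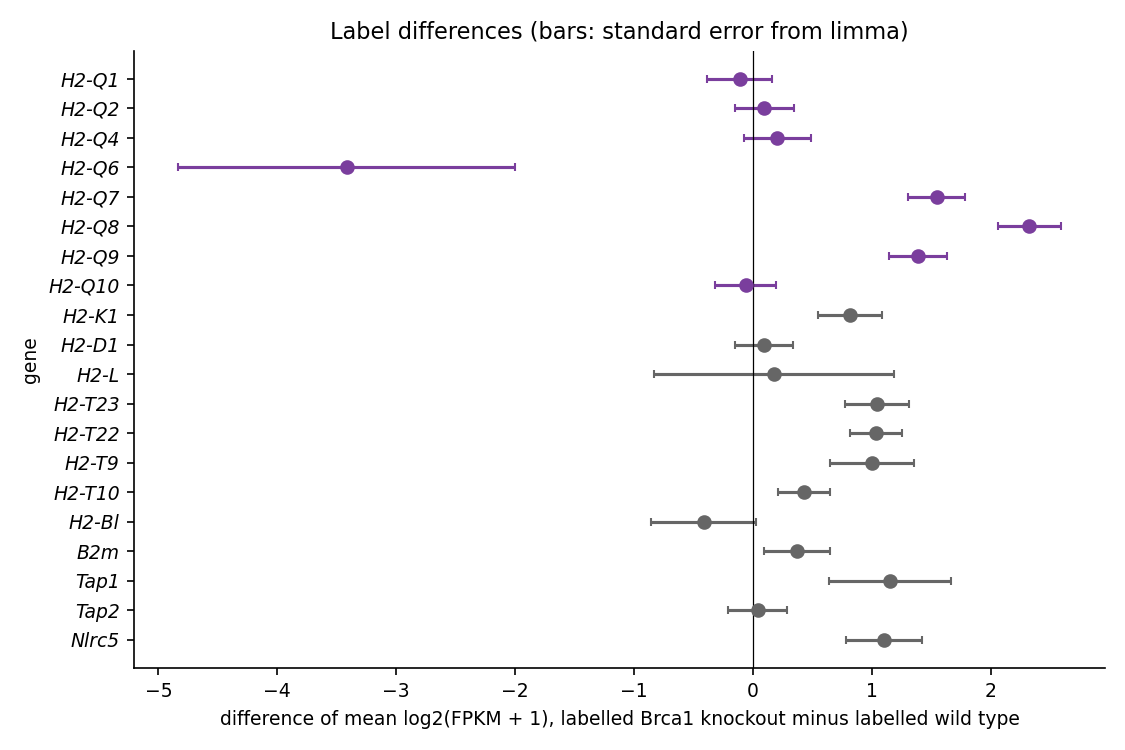
Difference of the mean log2(FPKM + 1) between knockout-labelled libraries and wild type, with bars of 1 standard error from limma, for the *H2-Q* members in purple and other class I and peptide loading genes in gray. *H2-Q8* (2.33) lies farthest to the right and *H2-Q6* (-3.41) farthest to the left of the genes drawn.

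Genes that load and assemble class I molecules overlapped between the labels for the most part. *B2m*, the shared light chain, was at 1704 to 2066 FPKM in the wild type-labelled libraries against 1968 and 2894 FPKM in replicates 4 and 5. Relative to *B2m*, the sum of *H2-Q7*, *H2-Q8* and *H2-Q9* was 7.44% to 9.26% in the former and 24.7% and 21.3% in the latter. The peptide transporter gene *Tap1* was highest in replicate 5 (129 FPKM) and at 49.1 FPKM in replicate 4, within the 25.0 to 53.6 FPKM of the wild type-labelled libraries. Of the 14 loading genes, all tested, 3 had lower values without overlap and 1 higher, beside 5.77% and 17.5% of all genes. The chaperone genes *Calr*, *Pdia3* and *Canx* were the lower ones and the trimming peptidase gene *Erap1* the higher one. The list's median difference was 0.33, with 11 of the 14 genes highest in replicate 5, beside 21.2% of all genes. This median was not recomputed without replicate 5. The 5 genes that attach the anchor of Qa-2 to its protein (*Pigk*, *Pigs*, *Pigt*, *Pigu* and *Gpaa1*) all overlapped, as most genes did, with a median difference of 0.10 beside 0.11 over all genes.

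Among 16 regulators of class I genes, *Nlrc5*, the class I transactivator, was at 8.12, 5.59 and 4.59 FPKM (replicates 1, 2 and 3) against 10.7 and 18.0 FPKM (replicates 4 and 5) (difference 1.10, standard error 0.32). *Nfyc*, a subunit of the factor that binds CCAAT, was the other regulator with higher, non-overlapping values, so 2 of the 16 were, a share below the 17.5% of all genes. The median difference of the 16 was 0.08. *Irf1*, an interferon regulatory factor, was highest in replicate 5 at 77.1 FPKM, while its value in replicate 4 (31.1 FPKM) lay within those of the wild type-labelled libraries.

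Interferon gamma is a known inducer of class I genes, and its target genes had their highest summed level in replicate 5. The summed level of 12 such genes was 192, 135 and 84.4 FPKM in replicates 1, 2 and 3, 124 FPKM in replicate 4 and 477 FPKM in replicate 5, and *Ifi47* was the most abundant. Of the 11 tested, 10 were highest in replicate 5, beside 21.2% of all genes. Also highest in that library were 11 of the 14 loading genes and all 5 anchor genes. None of the 11 had labels that did not overlap, beside 17.5% higher and 5.77% lower among all genes, and the median difference was 0.77. In replicate 4 this sum lay within the wild type-labelled libraries, and the sum of *H2-Q7*, *H2-Q8* and *H2-Q9* was 486 FPKM, against at most 183 FPKM in those libraries. The part of interferon in the levels of replicates 4 and 5 was not tested.

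**Figure D5:**
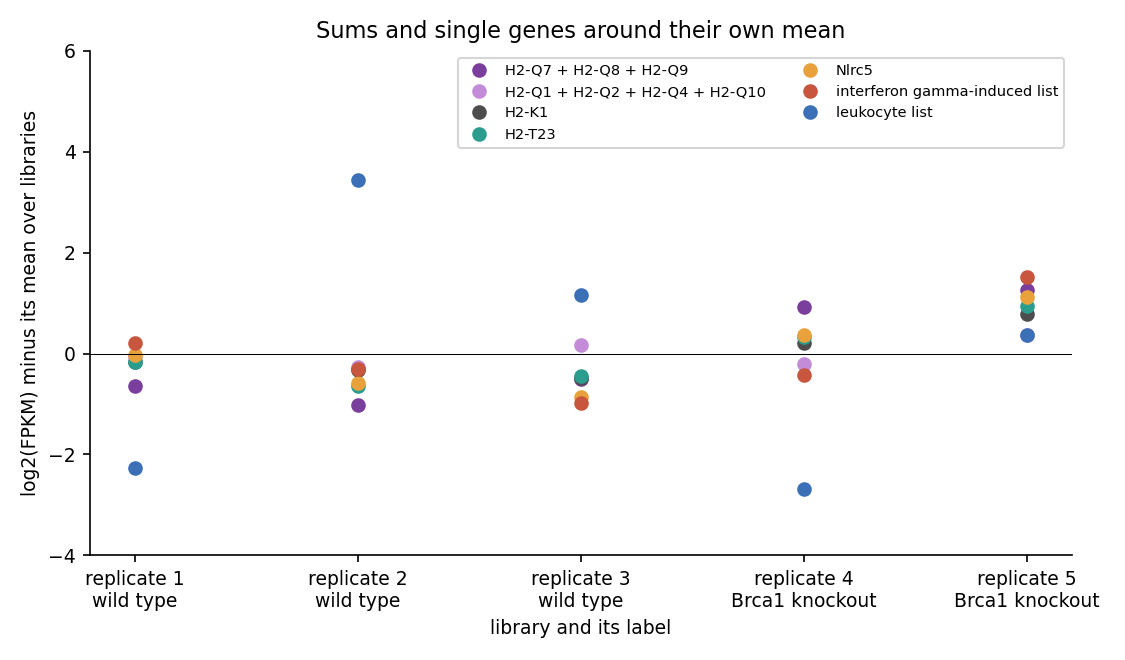
log2(FPKM) of sums and single genes in each library, minus their own mean over the 5 libraries. The sum of *H2-Q7*, *H2-Q8* and *H2-Q9* is above its mean in replicates 4 and 5, the interferon gamma-induced list is above its mean by the most in replicate 5, and the leukocyte list is highest in replicate 2.

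Lymphocytes and other leukocytes carry much class I, so their markers were read in every library. The methods of the study describe a depletion of hematopoietic and endothelial cells before the sort. The summed level of 13 leukocyte genes was 15.0, 781, 162, 11.2 and 93.3 FPKM in replicates 1 to 5, led by *H2-Aa* (490 FPKM in replicate 2). The T cell gene *Cd3e* was at 0 in replicates 1 and 4, which had the most genes listed at 0 (8833 and 8855, against at most 7231 elsewhere). *Ptprc*, the common leukocyte antigen, was at 0.119 and 0.183 FPKM in replicates 4 and 5 and up to 4.93 FPKM in replicate 2. The leukocyte sum was highest in replicate 2 and lowest in replicate 4. The sum of *H2-Q7*, *H2-Q8* and *H2-Q9* was 165, 127, 183, 486 and 617 FPKM in replicates 1 to 5. The fibroblast sum (2.997, 109, 86.0, 3.86 and 12.6 FPKM in replicates 1 to 5, led by *Dcn*) and the endothelial sum (at most 6.01 FPKM, led by *Pecam1*) were also highest in replicate 2. The median difference was -1.51 for the 8 leukocyte genes tested and -1.57 for the 5 fibroblast genes tested. Neither median was recomputed without replicate 2, where both sums were highest. Of the leukocyte genes 2, *Cd79a* and *Cd68*, had lower, non-overlapping values in the knockout-labelled libraries, beside 5.77% of all genes. The endothelial sum was lower in both knockout-labelled libraries (0.331 and 0.174 FPKM) than in every other (0.351 FPKM or more). The part of these other cell types in the levels of the Qa-2 genes was not tested. The adipocyte sum was at most 0.0903 FPKM, and the basal sum, led by *Krt14*, was highest in replicate 2 (129 FPKM) and 39.6 and 61.4 FPKM in replicates 4 and 5. In bulk samples, fewer cells of a type and less RNA per cell cannot be told apart.

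Genes outside the family with the most similar pattern were found by the mean absolute difference of log2(FPKM + 1), after centering, over the 5 libraries. For the summed *H2-Q* level these were *Rps4l* (0.04), *5430405H02Rik* (0.05), *Tgfbr2* (0.06), *Pml* (0.07) and *Gm20752* (0.07). *H2-T23* was among the 3 nearest genes of both *H2-Q7* (0.24) and *H2-Q9* (0.19), and *1700047E10Rik* among those of *H2-Q7*, *H2-Q8* and *H2-Q9*. *Tap2* was the second nearest to *H2-Q10* (0.07). The nearest to *H2-Q6*, whose own profile had an SD of 2.59, was *Gm23284*, with a mean absolute difference of 0.90. *Gm23284* was at 13.1, 37.3 and 48.5 FPKM (replicates 1, 2 and 3), listed at 0 in replicate 4 and at 8.50 FPKM in replicate 5. With 5 libraries these likenesses are a description only.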

How the data were processed

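RNA of 5 sorted luminal samples was sequenced on Illumina instruments. The authors aligned reads to mm10 with TopHat (2.0.13 in the submitters' processing notes, which differ from the methods on the version) after Trimmomatic 0.35, and quantified genes with Cufflinks 2.2.1. The deposited FPKM table has 24346 rows and no counts, and its gene annotation is not given in the sources used here. In 27 rows the gene name had become a date, and these were left out. FPKM were analysed as log2(FPKM + 1), which understates changes of low genes. Labels were compared across the 11481 genes whose mean reached 1 FPKM by limma 3.58.1 (eBayes with a trend) in R 4.3.3, with Benjamini-Hochberg adjustment at 0.05, tested on simulated data.

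The members and gene lists were chosen with earlier results of these data known. Named genes are the 8 members, per list at most 4 of the highest mean FPKM and any past the threshold, and the 5 genes nearest to the summed level and 3 nearest to each member. Other list genes were named after their values were seen, where labels did not overlap or the text speaks of the gene. The sums of *H2-Q6* to *H2-Q9*, the shares, the region counts and the *H2-Q7* transcript were also chosen after values were seen.

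The deposited table gives no depth. An estimate used the steps between low FPKM values multiplied by transcript length in 873 genes with 1 transcript longer than 3000 bases, and gave 6.28e+06, 3.03e+07 and 6.33e+06 fragments in replicates 1, 3 and 4. Replicates 2 and 5 scored best at 2.64e+07 and 4.37e+07 fragments and nearly as well (0.987 and 0.990 of the best score) at 1.31e+07 and 2.13e+07, so their depth is undecided. The estimator was revised after its output was seen, 3 rules in all, 1 of them with depths from an earlier analysis known, so it is approximate. Within 0.15 of a whole number lay 55.3% to 64.3% of values, against 30% by chance, so no counts were recovered. Python 3.11.15, numpy 2.4.6 and pandas 2.3.3 were used.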

Additional observations from a re-analysis of the deposited data

Results flagged for a closer look

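With the 5 libraries taken as 1 group, 19 levels were examined for a library whose gap to the others was large for the range of the group, and 3 were found. The family was chosen by these values and some of the levels are sums of the same genes, so this is a description and the number found is not set against chance. *H2-Q6* in replicate 4 was at 0.0473 FPKM, far below the other libraries. *H2-Q2* in replicate 2 was at 44.5 FPKM, below the narrow range of the others. *Brca1* in replicate 3, labelled wild type, was at 0.234 FPKM, below the other 4 libraries.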

How the results depend on the processing

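The differences of *H2-Q7*, *H2-Q8* and *H2-Q9* kept their direction with a pseudocount of 0.1, under median-of-ratios or quantile scaling and with each replicate left out, with leave-one-out ranges of 1.29 to 1.80, 2.18 to 2.52 and 1.21 to 1.54. For the sum of all members (0.59) this range was 0.34 to 0.84, and the difference was 0.87 without *H2-Q4*, 0.47 without *H2-Q7* and 0.35 without *H2-Q8*. The difference of *H2-Q6* was -4.83 with a pseudocount of 0.1, and -0.91 and -5.92 without replicates 4 and 5. Small differences changed sign and the cause was not tested: with a replicate left out, *H2-Q1* ran from -0.49 (without replicate 5) to 0.26 (without replicate 4), *H2-Q2* from -0.11 (without replicate 2) to 0.21, *H2-Q4* from -0.10 (without replicate 5) to 0.52, and *H2-Q10* from -0.35 to 0.23 (without replicate 4), with 0.04 without replicate 1. *H2-Q2* was -0.016 under median-of-ratios scaling. Genes called by limma numbered 0 to 18 with a replicate left out (2 without replicate 1, 18 without replicate 4, 4 without replicate 5) and 0 under the other settings. A lone library of a label was then assumed to vary like the other label. With windows of 150 bases, 84.3% of the *H2-Q7* windows were in the transcript linked to *H2-Q9*. The share of *H2-Q7* windows found in another gene, with that transcript not counted, fell to 11.6%. For the other members the shares fell to 5.99% for *H2-Q6*, 4.64% for *H2-Q1*, 8.39% for *H2-Q4* and 0% for *H2-Q10*. The part of the *H2-Q7* windows held by *H2-Q5* fell to 2.97%. The counts of members whose labels did not overlap with a replicate left out, and the counts around the family, were added after seeing the data. Median differences of the gene lists were not recomputed with a replicate left out. No paired analysis was possible because the labels share no replicate number. Depth is undecided by a factor of about 2 in replicates 2 and 5, and no statement rests on it.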

Other observations

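Of 7 class I-like genes encoded elsewhere, 6 were tested, with a median difference of -0.10 in the mean log2(FPKM + 1), and 1 had lower and 0 had higher non-overlapping values in the knockout-labelled libraries, beside 5.77% and 17.5% of all genes. *Fcgrt*, which encodes the neonatal Fc receptor, was at 1.95, 7.27 and 15.8 FPKM in replicates 1, 2 and 3 and at 0.677 and 0.655 FPKM in replicates 4 and 5, without passing the test (adjusted p = 0.924 from limma). *Cd1d1*, which encodes a lipid-presenting molecule, was at 9.29, 8.58 and 14.0 FPKM in replicates 1, 2 and 3 against 14.7 and 13.2 FPKM in replicates 4 and 5, and overlapped between the labels through replicate 3. The summed level of 10 genes induced by type I interferon was 127, 37.9, 67.4, 34.8 and 122 FPKM in replicates 1 to 5, high in 1 library of each label.

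The genes around the family were read for the same pattern, chosen with the values in view. Of 79 tested genes within 1 Mb of the *H2-Q* genes, the family left out, 17.7% had higher and 7.59% lower non-overlapping values in the knockout-labelled libraries, against 17.6% and 5.91% of 10454 genes on other chromosomes. Without replicate 3 these shares were 21.5% and 15.2% in the region and 23.6% and 15.6% elsewhere. Of 18 neighboring genes of the major histocompatibility complex on a list, 17 were tested, with a median difference of 0.34. Higher, non-overlapping values were found for 5 (*Tubb5*, *Ddr1*, *Mdc1*, *Prr3* and *Cchcr1*) and lower ones for *Flot1*, beside 17.5% and 5.77% of all genes. These genes lie in the same region, where the median difference over the 79 tested genes was 0.09, against 0.11 on other chromosomes.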
